A study of Mus musculus with 22 samples.

Results

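The comparison described here is that of mouse cardiac fibroblasts (CF) given the reprogramming factors with cells given lacZ, at day 5 after transduction. Its members were chosen by their labels and are 4 of the 22 arrays of the series: MGT 1 and MGT 2, from cells that received the factors, and lacZ 1 and lacZ 2, from cells that received the control vector. The series followed such cultures from day 0 to day 14 on Agilent 1-colour mouse arrays, to set bulk expression beside single-cell profiles of induced cardiomyocytes (iCM). The mice were of the CD1 strain and the aMHC-GFP genotype, in which the promoter of the cardiac myosin heavy chain gene Myh6 drives a fluorescent reporter, and controls and treated cells alike carried it. The MGT cells were infected with a retrovirus for Mef2c, Gata4 and Tbx5 on 1 polycistronic transgene, and the lacZ cells received the bacterial beta-galactosidase gene. No sorting step is described in the labels, so each array is taken to hold RNA of a whole culture, in which a change in the number of cells of a type and a change in RNA per cell cannot be told apart. The labels do not say whether replicates were separate cultures or animals. The p-values measure no more than the spread between replicate arrays, pooled over all 22 arrays of the series. That spread could be technical, and it is not that of the 4 day 5 arrays alone.

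Mef2c, Gata4 and Tbx5 are DNA-binding regulators of the heart muscle programme. Mef2c belongs to a family that binds AT-rich boxes in muscle gene promoters, Gata4 is a zinc finger protein that binds GATA sites, and Tbx5 is a T-box protein needed for the atria and the conduction system. Delivered together to fibroblasts, these factors are known to switch on sarcomere and calcium-handling genes and to reduce fibroblast genes, with only some cells of a culture completing the change.

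The 4 arrays lay on the same slide, side by side in its row 2, with the lacZ arrays first, so position on the slide and vector cannot be told apart. Of the 59305 spots per array, 54.7% and 51.6% were well above background on lacZ 1 and lacZ 2, and 57.4% and 60.2% on MGT 1 and MGT 2. No spot was saturated, and the 75th percentile of intensity lay between 1388 and 1641. Replicates differed by a median of 0.0624 (lacZ) and 0.105 (MGT) on the log2 scale, without regard to sign. Over the 11 groups, which share the estimate behind every SE and p-value, this median ran from 0.0582 (day 3 lacZ) to 0.263 (day 14 lacZ). Levels below are log2 intensities minus the 75th percentile of the same array, so that 0 marks the 75th percentile, and differences are MGT minus lacZ on the log2 scale. Levels of different probes are not compared. The number of arrays, 2 per group, limits the precision of every value.

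Of the factor probes, that of Mef2c is shown because its place in the transcript, base 1104, lets it read a coding transgene. Its 60 bases match mm9 over chr13:83772788-83775025, a stretch of 2238 bases, so that it crosses a splice junction.

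Mef2c probe: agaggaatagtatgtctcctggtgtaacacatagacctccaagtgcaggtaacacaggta

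The level of Mef2c was -1.74 on lacZ 1, -4.13 on lacZ 2, 1.67 on MGT 1 and 1.55 on MGT 2. The groups did not overlap, as for 76.4% of all genes, and the lacZ arrays lay farther apart than the MGT arrays. Mef2c rose by 4.54 (SE 0.516, adjusted p = 1.19e-05, limma), with 3.34 without lacZ 2 and 5.73 without lacZ 1. The Gata4 and Tbx5 probes lie at base 3227 and base 2800 of their transcripts, on chromosomes 14 and 5, and do not check a vector that carries coding sequence only. Gata4 read 2.95 and 2.99 on the lacZ arrays and 3.05 and 3.25 on the MGT arrays, a difference of 0.18 (adjusted p = 0.118). Tbx5 read -1.54 on both lacZ arrays, -1.0 on MGT 1 and -0.98 on MGT 2, a difference of 0.55 (adjusted p = 0.0992). Gata4 and Tbx5 were each past the test under 3 of 15 other settings.

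Of the fibroblast markers Col1a1, the main chain of type I collagen, read 7.59, 7.55, 7.39 and 7.60, and the intermediate filament gene Vim read between 7.82 and 8.30. Others of these markers differed between the groups: Pdgfra (-1.39) and Tcf21 (-0.29) were lower with MGT, and Thy1 (1.36) was higher. Of the cardiomyocyte markers Actn2 and Ryr2 were not well above background on either lacZ array, whereas Actc1, Myl7 and Tnnt2 were well above it on both.

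Of 18045 genes tested, 6876 (38.1%) differed between MGT and lacZ at day 5 at an adjusted p under 0.05. Of these, 2919 (16.2%) were higher and 3957 (21.9%) were lower with MGT, while the median difference over all genes was -0.06. The order of these counts depends on the scaling: 3497 genes were higher and 3237 lower with the 75th percentile taken over probes above background on every array. A total of 252 genes rose by at least 3 against 72 that fell by as much, and the counts were 54 and 3 at a difference of at least 5. The groups did not overlap for 13781 genes (76.4%), so that a lack of overlap alone is common here. On both MGT arrays and neither lacZ array 618 genes were well above background, and 84 genes showed the reverse. Of the 618 genes 389 were called higher, and of the 84 genes 80 were called lower. Both lacZ arrays had fewer spots above background than both MGT arrays, and the part of this in the 618 and 84 was not tested.

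**Figure D1:**
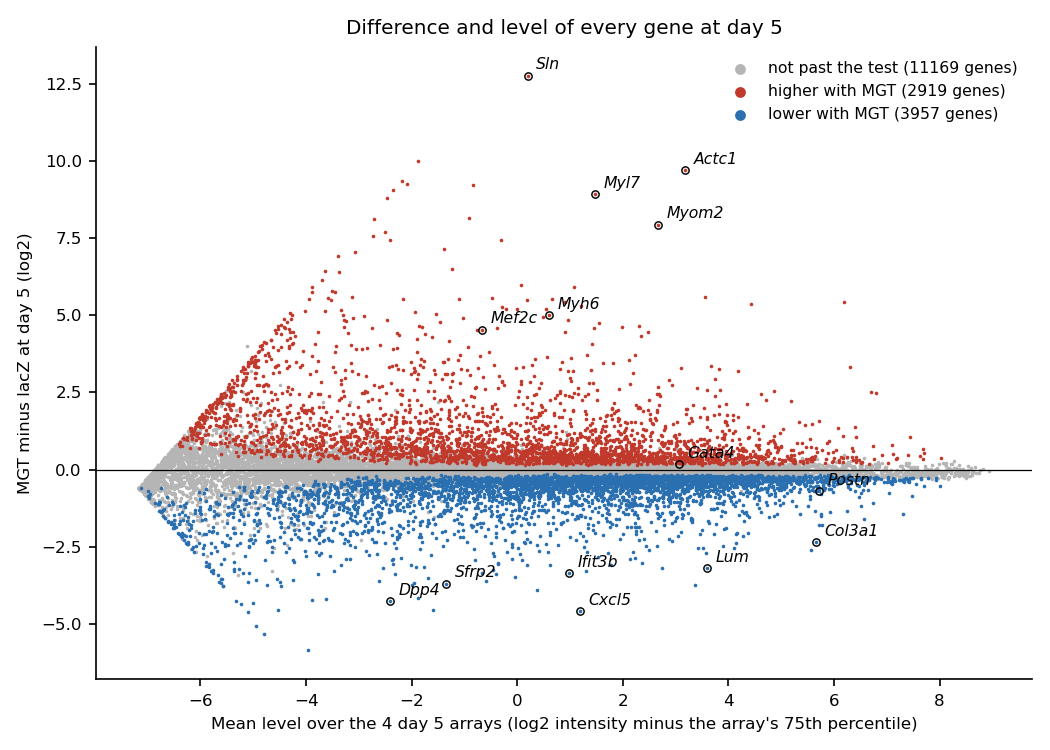
Difference (MGT minus lacZ, log2) against mean level over the 4 day 5 arrays (log2 intensity minus the array's 75th percentile), 1 point per gene, red where higher and blue where lower past the test. Rises reach 9.69 for Actc1 among genes measured on all 4 arrays while the largest fall there is -4.57 for Cxcl5. Differences of genes such as Sln depend on a lacZ level that was not well above background.

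Among genes well above background on all 4 arrays, the 3 largest rises were those of muscle filament genes. Actc1, cardiac alpha-actin, read -1.62 and -1.70 on the lacZ arrays and 7.98 and 8.08 on the MGT arrays, a rise of 9.69 (SE 0.113, adjusted p = 1.2e-14) or 824-fold. Myl7, the atrial regulatory light chain of myosin, read -3.00 and -2.97 against 5.92 and 5.97, a rise of 8.93 (SE 0.226, adjusted p = 1.03e-11). Myom2, a myomesin that cross-links myosin filaments at the M-band, read -1.35 and -1.26 against 6.63 on both MGT arrays, a rise of 7.93 (SE 0.398, adjusted p = 4.57e-09). For all 3 genes the groups did not overlap, as for 76.4% of all genes. Replicates lay far closer together than the groups, but the 3 genes were chosen for the size of their difference on these arrays.

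The next 12 rises spanned 5.21 to 5.99 and were not all sarcomere genes. They included Ppp1r3c (5.99), which targets a phosphatase to glycogen, the calcium-storage gene Casq2 (5.93), the granule protein gene Scg2 (5.58), the potassium channel gene Kcnc4 (5.53) and Myl4 (5.44), the atrial essential light chain. Fast skeletal and perinatal myosin heavy chains were among them, with Myh8 at 5.54 and Myh1 at 5.50. Outside muscle contraction they held Cdo1 (5.42), a cysteine dioxygenase, the basement membrane gene Nid2 (5.36), Dbh (5.30), the enzyme that makes noradrenaline, Clic5 (5.26) and Colq (5.21), the collagen tail of acetylcholinesterase.

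For genes not well above background on either lacZ array the lacZ level is only a limit. Each such rise is given as at least the ratio of the MGT mean to the lowest signal that counted as well above background on the lacZ arrays, or to the gene's own reading there if higher. By that bound Sln, which encodes the calcium pump inhibitor sarcolipin, was at least 2226-fold higher (adjusted p = 5.35e-12), with -5.74 and -6.61 on the lacZ arrays and 6.60 and 6.56 on the MGT arrays. It was followed by the hypertrophic cartilage collagen Col10a1 (at least 316-fold), the matrix protein gene Thbs4 (at least 206-fold), titin (Ttn, at least 202-fold) and the secreted Wnt inhibitor Wif1 (at least 135-fold). Smpx, a small muscle protein, came to at least 131-fold. The basement membrane gene Fras1 and the Z-disc gene Csrp3 were each at least 105-fold higher. These 8 were chosen among genes past the test, so that passing it was given, and their adjusted p was 1.16e-08 or lower.

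**Figure D2:**
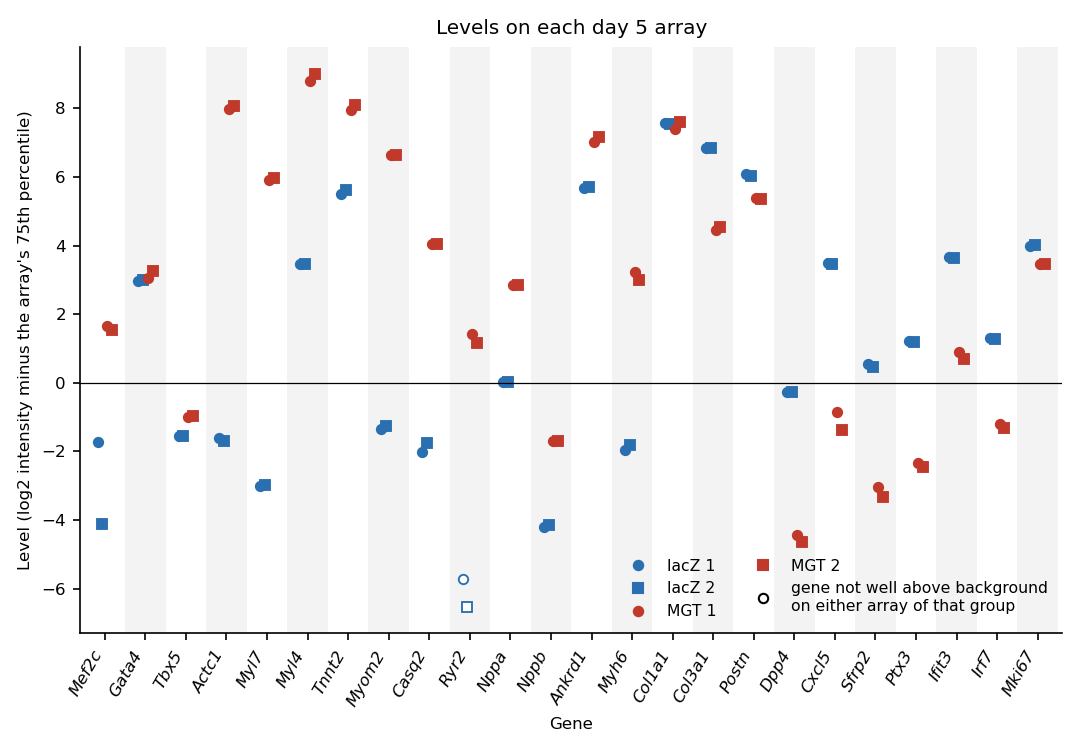
Level on each of the 4 day 5 arrays (log2 intensity minus the array's 75th percentile) for 24 named genes, with circles for replicate 1, squares for replicate 2, blue for lacZ, red for MGT and open symbols where no array of that group was well above background. Replicates sit close together beside the distance between groups for genes such as Actc1 (9.69 apart), while Mef2c has a wide gap between its lacZ arrays (-1.74 and -4.13) and Col1a1 overlaps between groups.

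The sarcomere is the contractile unit of striated muscle, in which myosin thick filaments pull on actin thin filaments anchored at the Z-disc. Of 53 sarcomere genes measured over 3 lists, 45 were higher, 1 was lower and the median difference was 3.18, beside 16.2% higher, 21.9% lower and a median of -0.06 over all genes. For 15 of them the level in a group was only a limit. With bounded genes set to their bound, the medians moved from 3.97 to 2.16 for the thick filament, from 2.65 to 2.53 for the thin filament and from 2.75 to 1.61 for titin, the Z-disc and the M-band.

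In the thick filament 9 of 12 genes rose and none fell. Myh6, the fast cardiac myosin heavy chain of the adult mouse, read -1.95 and -1.83 with lacZ and 3.23 and 2.99 with MGT, a rise of 5.0 (SE 0.138, adjusted p = 2.07e-11). Its slow counterpart Myh7 rose by 1.79 from a dim level, with -3.98 and -4.04 against -2.26 and -2.18. Mybpc3, the cardiac myosin-binding protein C, rose by 4.74, and Myl1 was at least 59.2-fold higher. The ventricular light chains Myl2 and Myl3 differed by 0.32 (adjusted p = 0.205) and 0.39 (adjusted p = 0.0983), while the atrial Myl7 and Myl4 rose as given above.

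Among thin filament genes 10 of 12 rose and none fell. Cardiac troponin T, Tnnt2, was already strong with lacZ (5.49 and 5.61) and rose by 2.48 to 7.96 and 8.10. Troponin C (Tnnc1) rose by 4.67 and the slow skeletal troponin I gene Tnni1 by 3.5. The cardiac troponin I gene Tnni3 rose by 5.04 (SE 0.526, adjusted p = 5.26e-06) to 0.99 on both MGT arrays, but its lacZ arrays read -5.14 and -2.97 and only 1 of them was well above background. Tpm1 and Acta1, which fibroblasts with contractile fibres also express, rose by 0.93 and 0.64. Nebl was not well above background on any of the 4 arrays.

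For titin, the Z-disc and the M-band, 26 of 29 genes rose and 1 fell. Des, the muscle intermediate filament desmin, read -1.53 and -1.39 against 3.36 and 3.43, a rise of 4.86 (SE 0.0611, adjusted p = 1.64e-14). Ldb3 rose by 3.71, Myoz2 by 3.5 and the stretch-responsive Ankrd1 by 1.4, from 5.67 and 5.71 with lacZ. Actn2, sarcomeric alpha-actinin, was at least 6.85-fold higher. Myom3, the third myomesin, was the gene that fell: it was at least 3.34-fold lower, with -4.10 and -2.69 on the lacZ arrays and no MGT array well above background. The call of Myom3 was not past the test in a fit of only the 4 day 5 arrays (adjusted p = 0.0502).

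Promoters of these genes were read from RefSeq (GRCm38.p6), and the 250 bases before the annotated start are shown for Actc1 and Myl7, the largest measured rises, and for Mybpc3 and Ttn, each 5′ to 3′ on the strand of the gene. Capitals mark an SRF CArG box in Actc1 and Myl7 and a MEF2 box in Mybpc3 and Ttn. Only windows with a match are shown. Casq2 also held a MEF2 box, while neither box was found for Csrp3, Des, Myh6, Myl4 and Tnnc1, which rose as well.

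Actc1, chr2:114052876-114053125, minus strand: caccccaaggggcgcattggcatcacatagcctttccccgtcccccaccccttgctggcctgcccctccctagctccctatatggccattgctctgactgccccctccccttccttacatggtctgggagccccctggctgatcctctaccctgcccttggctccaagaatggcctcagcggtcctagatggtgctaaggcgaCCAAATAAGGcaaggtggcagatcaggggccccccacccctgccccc

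Myl7, chr11:5898783-5899032, minus strand: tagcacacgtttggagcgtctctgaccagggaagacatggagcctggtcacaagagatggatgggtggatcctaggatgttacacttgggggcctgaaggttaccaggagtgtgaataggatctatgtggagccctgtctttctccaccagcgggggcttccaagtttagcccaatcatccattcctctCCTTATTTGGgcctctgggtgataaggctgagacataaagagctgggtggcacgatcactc

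Mybpc3, chr2:91117894-91118143, plus strand: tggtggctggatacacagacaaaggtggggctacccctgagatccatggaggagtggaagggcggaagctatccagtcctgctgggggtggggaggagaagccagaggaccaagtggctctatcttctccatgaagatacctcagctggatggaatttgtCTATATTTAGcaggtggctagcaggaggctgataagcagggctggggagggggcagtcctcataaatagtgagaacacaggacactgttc

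Ttn, chr2:76982548-76982797, minus strand: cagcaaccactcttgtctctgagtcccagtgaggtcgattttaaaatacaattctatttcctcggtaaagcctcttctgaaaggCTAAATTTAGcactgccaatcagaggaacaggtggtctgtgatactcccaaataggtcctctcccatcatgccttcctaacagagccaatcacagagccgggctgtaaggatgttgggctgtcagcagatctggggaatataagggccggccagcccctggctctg

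In positions counted back from the start, with -1 as the last base before it, the CArG box lies at -47 to -38 in Actc1 and at -61 to -52 in Myl7. The MEF2 box lies at -90 to -81 in Mybpc3 and at -166 to -157 in Ttn. Both motifs, GATA sites (AGATAA) and T-box core sites (GGTGTG) were searched on both strands of windows of 300 bases, from 250 before to 50 after the start, in which matches of MEF2 and CArG boxes overlapped in 0 promoters. A MEF2 box stood in 3.19% of all 32851 promoters and 2.50% of the 13778 tested genes with a promoter, against 5.26% of the 856 that rose by at least 1, 8.81% of the 193 that rose by at least 3 and 3.04% of the 691 that fell by at least 1. A CArG box stood in 1.63%, 1.74%, 3.04%, 5.70% and 1.01% of the same groups. The shares for AGATAA were 11.2%, 9.30%, 10.4%, 10.9% and 12.6%, and those for GGTGTG 19.0%, 21.0%, 24.3%, 26.4% and 21.3%. Of 46 sarcomere genes with a promoter, 6 (13.0%) held a MEF2 box and 7 (15.2%) a CArG box. These shares are descriptions of letters in a window and were not tested.

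Calcium is released and taken up by the sarcoplasmic reticulum (SR) at each heartbeat. Of 20 SR calcium handling genes 16 rose and none fell, beside 16.2% higher and 21.9% lower over all genes. Their median was 1.07 (0.997 with bounded genes at their bound). Casq2, the calcium-binding protein of the SR lumen, read -2.02 and -1.75 with lacZ and 4.06 and 4.04 with MGT, a rise of 5.93 (SE 0.118, adjusted p = 1.05e-12). The release channel gene Ryr2 was at least 56.9-fold higher and its partner Trdn, triadin, at least 22.5-fold. Atp2a2, the SR calcium pump, was well above background in both groups and rose by 2.44, from 1.47 on both lacZ arrays to 3.95 and 3.86. Of the pump's small inhibitors, Sln rose as given above, and Pln, phospholamban, was not well above background on any of the 4 arrays.

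Of 28 ion channels and exchangers 13 were higher and 4 lower, with a median of 0.31, beside 16.2% higher and 21.9% lower over all genes. With normexp background correction 8 were higher and 2 lower. Kcnj5, a subunit of the atrial acetylcholine-gated potassium channel, rose by 3.18, with -0.51 and -0.58 against 2.63 and 2.65. The L-type calcium channel gene Cacna1c rose by 2.12, and its relative Cacna1d fell by 1.73 (SE 0.527, adjusted p = 0.0200), with lacZ arrays that read -3.36 and -1.0. The difference of Cacna1d was -0.54 and not past the test without lacZ 2, and not past it without MGT 1, without MGT 2 or in a fit of only the day 5 arrays (adjusted p 0.225 at most). The potassium channel gene Kcnd2 was at least 2.53-fold higher. Of the 13 higher members, 2, Abcc9 and Kcnj8, were not well above background on any of the 4 arrays.

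Junctions between heart muscle cells join their desmosomes, adherens and gap junctions in the intercalated disc. Of 18 such genes 15 rose and none fell (median 1.33), beside 16.2% higher and 21.9% lower over all genes. Dsp, the desmosomal desmoplakin, read -0.92 and -0.76 against 3.75 on both MGT arrays, a rise of 4.58 (SE 0.137, adjusted p = 4.09e-11). The atrial connexin gene Gja5 rose by 3.13 and the working muscle connexin gene Gja1 by 1.32, from -0.93 and -0.91 to 0.30 and 0.50. Popdc3 was at least 13.5-fold higher and its relative Bves rose by 2.77.

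Of 33 cardiac transcription regulators, 11 were higher and 10 lower, with a median of -0.04, beside 16.2% and 21.9% over all genes. Hopx rose by 3.20, from -3.47 and -3.60 to -0.25 and -0.42, and Myocd, the myocardin coactivator of SRF, by 1.81, from -2.04 and -1.97 to -0.16 and -0.23. Esrrg was at least 3.15-fold higher, and the T-box repressor gene Tbx2 rose by 1.45. Nkx2-5, a central regulator of early heart cells, read -3.27 and -3.41 with lacZ and -3.30 and -3.45 with MGT and showed no difference beyond the spread (-0.04, adjusted p = 0.963). Hand2 fell by 0.61 and Gata6 by 0.47. Srf differed by -0.32 (adjusted p = 0.0238), but was not past the test without lacZ 1, lacZ 2 or MGT 1 (0.228 at most) or under 4 other settings, with -0.0144 in the deposited table. Hey2 was at least 1.87-fold lower, well above background on 1 lacZ array and no MGT array.

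Of 20 natriuretic peptides, hormones and receptors 7 were higher and 6 lower, beside 16.2% and 21.9% over all genes. The natriuretic peptide gene Nppa read 0.03 and 0.02 against 2.85 and 2.84, a rise of 2.82 (SE 0.146, adjusted p = 6.06e-09), and Nppb rose by 2.49. Scg2 rose by 5.58, from 0.71 and 0.84 to 6.27 and 6.43, and the adenosine receptor gene Adora1 was at least 24.3-fold higher. The falls were those of Ednra (-2.35), Npr3 (-2.18), the natriuretic clearance receptor, Agt (-2.01), Adm (-1.71), Edn1 (-1.60) and Agtr1a (-1.39). Agt, the angiotensin precursor, read -1.71 and -1.92 against -3.88 and -3.76, and its adjusted p of 0.00910 became 0.0530 at most when a replicate was left out (lacZ 1 or MGT 1).

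**Figure D3:**
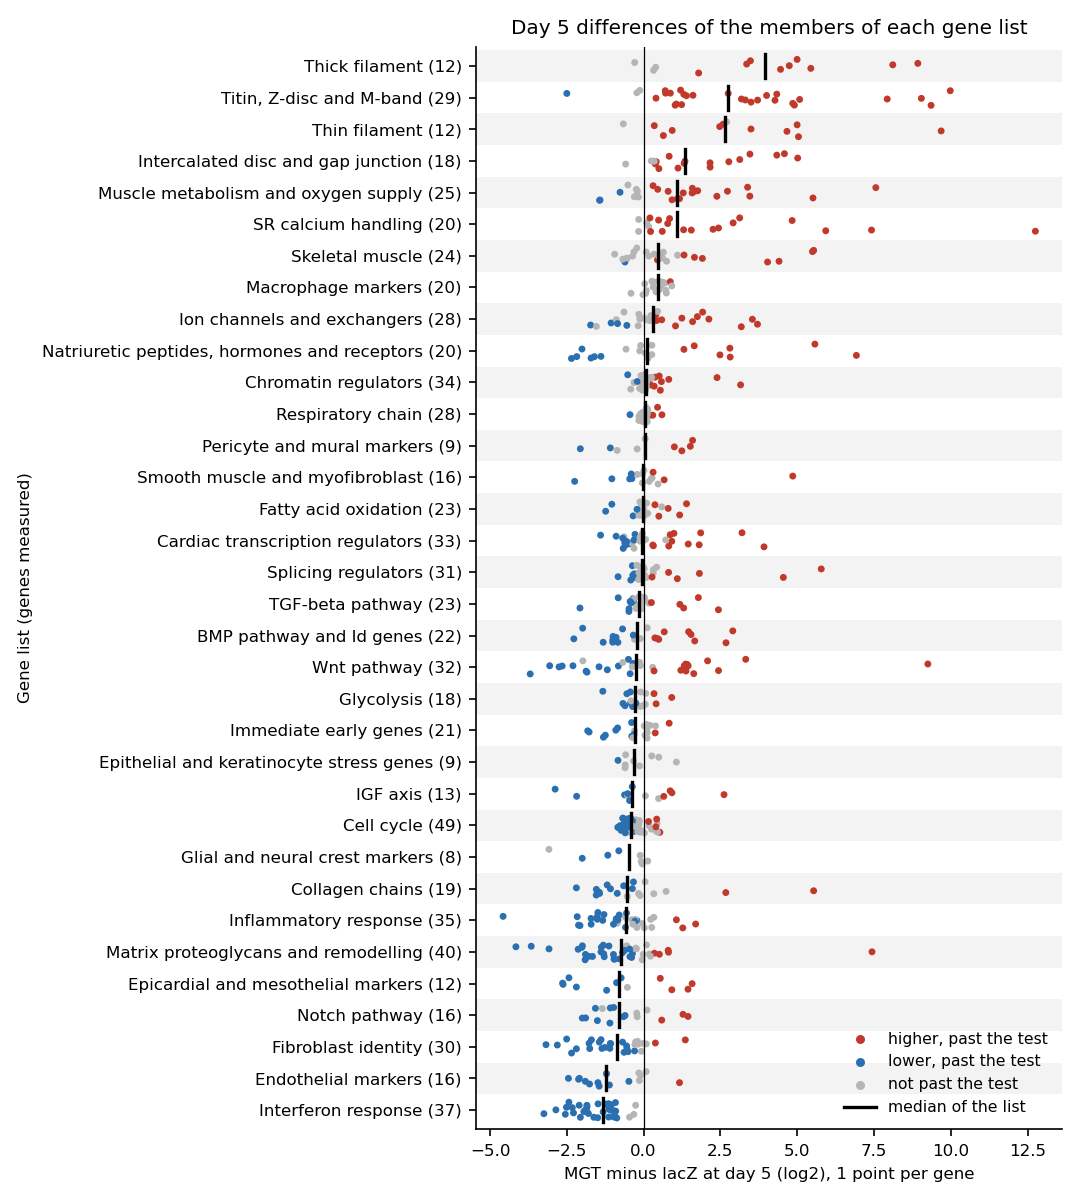
Difference (MGT minus lacZ at day 5, log2) of every measured member of 34 gene lists, 1 point per gene, red and blue where past the test and grey where not, with a black bar at the list's median. The 3 sarcomere lists have the highest medians (3.97, 2.75 and 2.65) and interferon response the lowest (-1.32), and lists such as cardiac transcription regulators spread to both sides of 0.

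Metabolic genes differed by pathway, and the shares over all genes were 16.2% higher and 21.9% lower. Of 25 genes of muscle metabolism and oxygen supply, 17 were higher and 3 lower (median 1.10): myoglobin, Mb, was at least 48.0-fold higher, Pgam2 rose by 3.46 and the insulin-regulated glucose transporter gene Slc2a4 by 3.39, from -2.15 and -2.12 to 1.25 and 1.26. The uncoupling protein gene Ucp2 fell by 1.43. Of 18 glycolysis genes 3 were higher and 9 lower (5 without MGT 1), with Slc16a3, the lactate exporter, falling by 1.33 and Ldhb, the heart form of lactate dehydrogenase, rising by 0.92. Of 23 fatty acid oxidation genes 5 were higher and 4 lower (2 without MGT 1). Of 28 respiratory chain genes 3 were higher and 1 lower, and 13 were higher with quantile normalization.

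Of 24 skeletal muscle genes 8 were higher and 1 lower, beside 16.2% and 21.9% over all genes. Their median was 0.48 (0.46 with the bounded gene at its bound). The lower gene, Pax3 (-0.61, adjusted p = 0.0109), was not past the test without lacZ 2 or MGT 1, with normexp or in the deposited table (0.0868 at most). The fast troponin T gene Tnnt3 rose by 4.41 and the myosin heavy chain Myh2 by 4.04, each well above background on 1 lacZ array and both MGT arrays. The skeletal master regulators Myod1 and Myog, and Myf6 and Pax7, were not well above background on any of the 4 arrays. Myh1, Myh2 and Myh8 are close relatives, as are Ifit3 and Ifit3b, and Lyz1 and Lyz2, and whether their probes read each other's RNA was not tested.

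The largest falls on genes measured on all 4 arrays were smaller than the largest rises. Cxcl5, a chemokine that draws neutrophils, read 3.48 and 3.46 with lacZ and -0.84 and -1.36 with MGT, a fall of 4.57 on the log2 scale (SE 0.243, adjusted p = 7.73e-09) or 23.8-fold. Vat1l fell by 4.54 and Dpp4, a surface peptidase, by 4.26, from -0.27 and -0.28 to -4.45 and -4.64. Smoc1, a secreted BMP antagonist, fell by 4.16 and F3, tissue factor, by 3.91.

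A further 9 falls among the largest ran from -3.74 to -3.34. They were those of Plac8 (-3.74), the secreted Wnt modulator Sfrp2 (-3.69), the hyaluronan synthase gene Has2 (-3.66), the desmosomal Pkp1 (-3.60), the pentraxin gene Ptx3 (-3.59), the prostaglandin-degrading enzyme Hpgd (-3.50), Cyp2s1 (-3.39), the glypican gene Gpc6 (-3.38) and Ifit3b (-3.34). Plac8 read 5.23 and 5.25 on the lacZ arrays against 1.45 and 1.55 on the MGT arrays.

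Falls of genes that no MGT array measured were smaller as bounds. Ddx4, a helicase of germ cells, was at least 17.1-fold lower, followed by Cyp4b1 (at least 12.3-fold), the aryl hydrocarbon receptor target Cyp1a1 (at least 10.2-fold), Akr1c14 (at least 8.34-fold), Kcnc2 (at least 8.06-fold) and Prl (at least 7.33-fold). Olfr982 and Serpinb2 were at least 6.62-fold and at least 6.37-fold lower. The lacZ arrays of Kcnc2 (-1.33 and -2.93) and Olfr982 (-1.65 and -3.18) lay apart.

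Fibroblast identity genes fell in most cases, with 21 of 30 lower and 2 higher, beside 21.9% and 16.2% over all genes. Their median was -0.88. Lum, the small proteoglycan lumican, read 5.18 and 5.19 against 2.01 on both MGT arrays, a fall of 3.18 (SE 0.114, adjusted p = 2.18e-10). Ly6a fell by 2.81, Dpep1 by 2.50, Col3a1 by 2.34, from 6.83 and 6.85 to 4.44 and 4.55, and Dpt by 2.19. The receptor gene Pdgfra fell by 1.39, and the epicardial-lineage regulator Tcf21 by 0.29, from 2.82 and 2.88 to 2.54 and 2.57. Tcf21 was not past the test without lacZ 2, with normexp or in the deposited table (adjusted p 0.27 at most). The genes that rose were the surface marker Thy1, by 1.36, and Vim, by 0.38, though Vim was not past the test without lacZ 1 or MGT 2 (adjusted p 0.0823 at most). Col1a1 differed by -0.07 (adjusted p = 0.862).

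Of 19 collagen chains 11 were lower and 2 higher (median -0.53), beside 21.9% lower and 16.2% higher over all genes. Col5a3 fell by 2.19, Col16a1 and Col6a1 each by 1.54. Col12a1, a fibril-associated collagen, rose by 2.68, from 1.32 on both lacZ arrays to 4.0 and 3.99, and Col22a1, found at muscle-tendon junctions, was at least 35.5-fold higher. The probes of Col8a2 disagreed: the brighter fell by 0.86 and the other rose by 5.12, and the mean over both was 2.13 higher. Among 40 proteoglycans and remodelling enzymes 26 were lower and 5 higher (median -0.74, or -0.69 with the bounded gene at its bound), with Mmp3, stromelysin, falling by 3.08 and Has2 and Smoc1 as given above. Abi3bp rose by 7.44 (SE 0.304, adjusted p = 6.79e-10), from -4.63 and -3.42, with 1 lacZ array well above background, to 3.52 and 3.30.

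Of 16 smooth muscle and myofibroblast genes 3 were higher and 5 lower (3 without lacZ 1 or lacZ 2, and 3 higher became 2 without lacZ 2 or MGT 2), with a median of -0.01. Over all genes 16.2% were higher and 21.9% lower. Acta2, the actin of stress fibres in activated fibroblasts, read 8.15 and 8.13 against 8.28 and 8.55 (0.28, adjusted p = 0.0796). Acta2 was past the test with quantile normalization, in the deposited table and with the 75th percentile taken over probes above background on every array. Itga11, an integrin that binds collagen, fell by 2.24, from 3.52 on both lacZ arrays to 1.27 and 1.28, and Des was the largest rise of that list.

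Among signalling pathways, 5 of 23 TGF-beta members were higher and 8 lower. The shares over all genes, 16.2% higher and 21.9% lower, stand beside this count and the BMP, Wnt, Notch and growth factor counts below. The ligand gene Tgfb2 rose by 1.78, the latency protein gene Ltbp1 by 2.44 and the receptor gene Tgfbr1 by 1.30, while the activin subunit Inhbb fell by 2.07.

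Of 22 BMP pathway and Id genes, 9 were higher and 10 lower. The extracellular antagonists Fst (2.90), Grem1 (2.68) and Nog (1.55) rose, and Fst read 1.45 and 1.4 against 4.24 and 4.42. The target Id1 fell by 1.98, from 3.28 and 3.19 to 1.11 and 1.39, Id3 by 0.99 and Id2 by 0.68. The ligand gene Bmp4 fell by 1.0, while the ligand gene Bmp2 rose by 1.47.

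Of 32 Wnt pathway members 12 were higher and 13 lower. The feedback targets Axin2 and Lef1 were at least 3.05-fold and at least 2.42-fold higher, and Nkd1 rose by 1.63, or by 0.58 with its probes averaged, which was not past the test (adjusted p = 0.432). Of the secreted antagonists, Wif1 rose as given above, and Sfrp2 (-3.69), Sfrp1 (-2.75) and Sfrp4 (-2.30) fell. Dkk2 was at least 2.09-fold lower, and its measured difference of -3.06 became -1.82 without lacZ 1. The call of Dkk2 was not past the test in a fit of only the 4 day 5 arrays (adjusted p = 0.0905). The probes of Fzd7 and of Nkd2 disagreed in direction.

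Of 16 Notch pathway genes 3 were higher and 9 lower (median -0.81), with Notch4 falling by 2.0, Notch3 by 1.08 and the ligand gene Jag1 by 1.10, and Notch1 rising by 1.28, though it differed by -0.0183 in the deposited table. In the insulin-like growth factor axis 4 of 13 were higher and 6 lower: Igfbp5 rose by 2.62, and Igfbp3 and Igfbp4 fell by 2.88 and 2.18.

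Interferon response genes are switched on by cells to resist viruses. Of 37 measured, 34 were lower, none was higher and the median was -1.32 (-1.24 with the bounded gene at its bound), beside 21.9% lower over all genes. Zbp1, a sensor of viral nucleic acid, read 1.13 and 1.19 against -2.14 and -2.03, a fall of 3.25 (SE 0.123, adjusted p = 3.68e-10). Ifit3 read 3.66 and 3.65 against 0.91 and 0.69, a fall of 2.86, and the regulator gene Irf7 fell by 2.55, from 1.32 and 1.28 to -1.20 and -1.31. The signalling factor gene Stat2 fell by 1.15. The 3 genes that missed the test were Ifit2 (-0.26), Iigp1 (-0.32) and Mx1 (-0.46). Averaged over the list, the level was 2.06 and 2.04 on the lacZ arrays and 0.59 and 0.48 on the MGT arrays.

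The promoter of Ifit3 is shown because it holds 2 matches to the interferon-stimulated response element (ISRE, searched by its core on both strands), in capitals at -156 to -147 and -122 to -113. The bases are the 250 before the RefSeq start on GRCm38.p6.

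Ifit3, chr19:34583279-34583528, plus strand: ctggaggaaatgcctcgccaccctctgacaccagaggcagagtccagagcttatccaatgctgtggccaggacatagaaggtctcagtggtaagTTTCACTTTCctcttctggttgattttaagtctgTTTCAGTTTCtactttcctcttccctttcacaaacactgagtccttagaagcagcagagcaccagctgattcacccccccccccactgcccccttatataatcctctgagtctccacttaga

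The element stood in 16 of 28 interferon response genes with a promoter (57.1%), against 3.75% of tested genes, 9.41% of genes that fell by at least 1 and 2.34% of genes that rose by at least 1. Over all 32851 promoters the share was 3.44%, and 1 of these had an ISRE match that overlapped a MEF2 box.

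Inflammatory genes fell in most cases too, with 20 of 35 lower and 3 higher, beside 21.9% and 16.2% over all genes. Their median was -0.59. Il6 read 4.11 and 4.15 against 2.04 and 1.90, a fall of 2.16 (SE 0.128, adjusted p = 2.25e-08). The chemokine genes Cxcl1 and Ccl2 fell by 2.12 and 1.33. The genes that rose were the acute phase gene Saa3 (1.69), the complement gene C3 (1.27) and Lif (1.07). The probes of Cxcl12 disagreed in direction, with -0.56 for the brighter and 0.29 for the other.

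Of 49 cell cycle genes 26 were lower and 4 higher (median -0.42), and the higher count was 1 without lacZ 1 or MGT 1 and 2 without lacZ 2 or MGT 2. Over all genes 21.9% were lower and 16.2% higher. The mitotic kinase genes Plk1 and Aurka fell by 0.81 and 0.78, with Plk1 at 4.01 and 4.0 against 3.19 and 3.21. The inhibitor gene Cdkn1a rose by 0.43. The proliferation marker Mki67 read 3.98 and 4.01 against 3.45 on both MGT arrays, a difference of -0.54 (adjusted p = 0.0601). Mki67 was past the test under 4 other settings, among them a fit of only the day 5 arrays.

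Of 31 splicing regulators 6 were higher and 6 lower, beside 16.2% higher and 21.9% lower over all genes. The muscle splicing factors Rbm24 and Rbm20 were at least 15.2-fold and at least 4.89-fold higher, and Qk rose by 1.82, from 2.29 and 2.27 to 4.09 and 4.11. Of 34 chromatin regulators 9 were higher and 2 lower. Hdac9, a class II deacetylase of muscle, rose by 3.16, from -3.52 and -3.56 to -0.38 on both MGT arrays, and the demethylation enzyme Tet1 by 2.39. Of 21 immediate early genes 2 were higher and 9 lower, with Fosl1 at -1.82, Myc at -1.31 and Klf2 at -1.25. Another of these 9, Egr4, was not well above background on any of the 4 arrays.

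Markers of other cells that a heart culture can hold were measured beside these lists, and their part in the results was not tested. Of 16 endothelial markers 10 were lower and 1 higher (median -1.21, or -0.84 with bounded genes at their bound), beside 21.9% lower over all genes. The lower count was 6 without lacZ 1, without MGT 1 or with a replicate block. Tek fell by 2.12 and Pecam1 by 0.48, while Flt1 rose by 1.17, and the signals of the list relative to the 75th percentile summed to 32.2 and 32.0 with lacZ and 28.6 and 29.99 with MGT. Cdh5, the defining cadherin of endothelium, fell by 1.76, but its adjusted p of 0.0280 became 0.0905 or more when any of the 4 arrays was left out. Of 20 macrophage markers 1 passed the test, beside 38.1% of all genes: Lyz1 (0.87), which read 4.84 and 4.87 against 5.96 and 5.50. Their median was 0.47 and their signals summed to 98.3 and 99.6 with lacZ, 159 on MGT 1 and 133 on MGT 2, and Ptprc, the common leukocyte antigen, was well above background on all 4 arrays (0.45, adjusted p = 0.418).

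Of 12 epicardial and mesothelial markers 7 were lower and 4 higher, beside 21.9% and 16.2% over all genes. Krt8 and Muc16 fell by 2.64 and 2.62, Wt1 by 1.2 and Bnc1 by 2.19, while Krt19 rose by 1.58 and Msln by 1.45, and the summed signals were 50.7, 51.0, 53.5 and 53.1. Of 9 pericyte and mural markers 4 were higher (2 without MGT 2), 2 of them not above background on any array, and 2 lower, with sums of 71.6, 69.7, 59.6 and 61.8. Of 8 glial and neural crest markers 3 were lower, among them S100b (-2.0), with sums of 5.49, 5.68, 2.52 and 2.25. Of 9 epithelial and keratinocyte genes 1 was lower, Sprr1a (-0.83), with sums between 2.78 and 2.99.

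How day 5 relates to its neighbours was asked by testing whether the MGT minus lacZ difference itself changed. Day 3 shared the slide of day 5 and day 7 lay on another, with both groups of a day always on the same slide. From day 3 to day 5 the difference changed for 1480 genes (8.20%), upward for 732 (4.06%) and downward for 748 (4.15%). From day 5 to day 7 it changed for 935 (5.18%), upward for 482 (2.67%) and downward for 453 (2.51%). The first count was 894 without day 3 lacZ 1, 886 without day 3 lacZ 2, 967 without day 3 MGT 1, 921 without day 3 MGT 2 and 966 without day 5 lacZ 2. The second was 538 without day 5 lacZ 2, 546 without day 5 MGT 1, 618 without day 7 lacZ 2, 607 without day 7 MGT 1 and 503 without day 7 MGT 2. Both changes use the day 5 arrays and are therefore not independent of each other. A change of the difference can come from either group, so each group's own levels are given beside it.

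Of the 53 sarcomere genes, 25 moved up and none down from day 3 to day 5, and 12 moved up and 3 down from day 5 to day 7. Shares over all genes were 4.06% up and 4.15% down, and then 2.67% up and 2.51% down. Over the 25 that moved up to day 5 the median change of the lacZ mean was -1.03 and that of the MGT mean 0.72, and the lacZ change was the larger in 18. Myh6 differed by 0.15 at day 3 (adjusted p = 0.50), 5.0 at day 5 and 7.67 at day 7, and its changes of 4.85 and 2.68 passed both tests (adjusted p = 3.76e-08 and 2.13e-05). From day 3 to day 5 the lacZ level of Myh6 went from 2.15 and 2.17 to -1.95 and -1.83, and its MGT level from 2.41 and 2.20 to 3.23 and 2.99, so most of the first change lay in the lacZ arrays. At day 7 its lacZ arrays read -1.28 and -1.45 and its MGT arrays 6.42 and 6.20, so most of the second lay in the MGT arrays. The difference of Actc1 grew by 5.49 from day 3 to day 5 (adjusted p = 1.20e-09), with lacZ going from 2.72 and 2.68 to -1.62 and -1.70 and MGT from 6.89 and 6.90 to 7.98 and 8.08. It then shrank by 1.08 to day 7 (adjusted p = 0.00181), where lacZ read -0.27 and -0.06 and MGT, which was not lower than at day 5, 8.52 and 8.36. Myl7 differed by 8.15, 8.93 and 9.80 with neither change past the test. The natriuretic peptide gene Nppa differed by 0.57, 2.82 and 2.45, and the first change passed (adjusted p = 3.92e-05), with mean levels of 1.46 and 0.02 for lacZ and 2.02 and 2.84 for MGT at days 3 and 5.

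**Figure D4:**
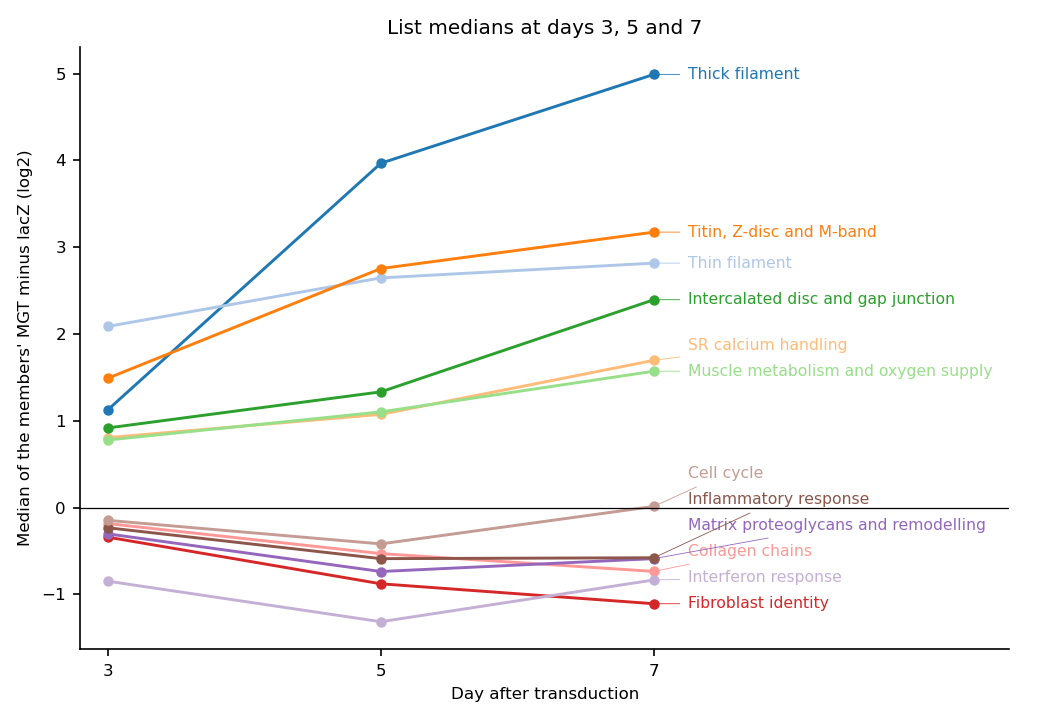
Median over the members of each of 12 gene lists of the MGT minus lacZ difference (log2) at days 3, 5 and 7, joined by lines. The thick filament median goes from 1.13 through 3.97 to 4.99, the fibroblast identity median from -0.34 through -0.88 to -1.11, and the interferon response and cell cycle medians are at -1.32 and -0.42 at day 5.

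Of 30 fibroblast identity genes 18 moved down and none up from day 3 to day 5, and 2 moved up and 3 down afterwards. Among all genes 4.15% moved down and 4.06% up from day 3 to day 5, and 2.51% down and 2.67% up afterwards. Over the 18 the median change of the lacZ mean was 0.41 and that of the MGT mean -0.40. Lum differed by -1.0 at day 3, -3.18 at day 5 and -3.29 at day 7. Of 40 proteoglycan and remodelling genes, 18 moved down and 2 up from day 3 to day 5, and 1 down and 7 up from day 5 to day 7.

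Among all genes 4.15% moved down and 4.06% up from day 3 to day 5, and 2.51% down and 2.67% up from day 5 to day 7. Of 37 interferon response genes 13 moved down over the first interval and 7 moved up over the second, none the other way. Their medians at days 3, 5 and 7 were -0.85, -1.32 and -0.83. Both groups were lower at day 5 than at day 3 over the 13 that moved down, with median changes of -0.88 for lacZ and -2.03 for MGT. Zbp1 differed by -1.49, -3.25 and -1.66 and Irf7 by -1.30, -2.55 and -0.96, and for both genes both changes passed the test. For cell cycle genes the medians were -0.15, -0.42 and 0.01, but 1 of 49 changed from day 3 to day 5, and 4 moved up and 3 down from day 5 to day 7, so that most single genes showed no change past the test. Aurka was among those that moved up (0.79, adjusted p = 0.0136). For the 4 genes that moved up, the median change was -1.61 for the lacZ mean and -0.80 for the MGT mean. The lacZ change was the larger in all 4.

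**Figure D5:**
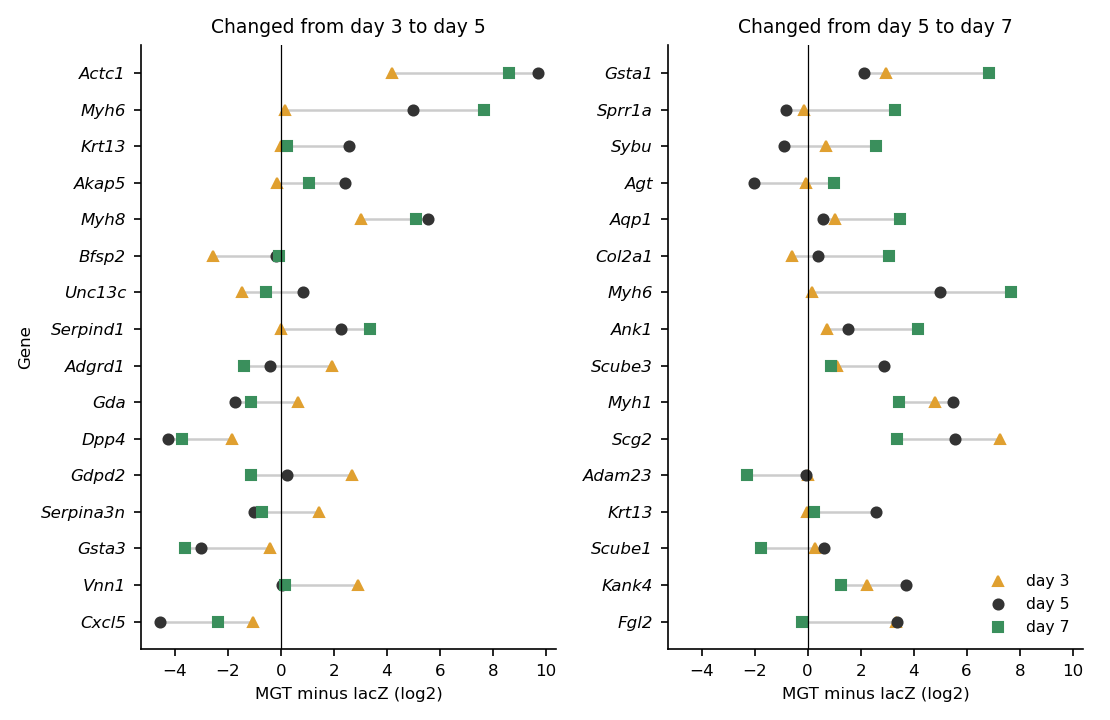
MGT minus lacZ difference (log2) at days 3 (triangles), 5 (circles) and 7 (squares) of the 16 genes with the largest changes from day 3 to day 5 (left) and of the 16 from day 5 to day 7 (right). Myh6 goes from 0.15 through 5.0 to 7.67, whereas Fgl2 stays near its day 3 value at day 5 (3.33 and 3.37) and is at -0.21 at day 7, where its lacZ mean had gone from -1.40 to 2.23 and its MGT mean from 1.97 to 2.02.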

How the data were processed

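Total RNA was labelled with Cy3 and hybridised to 1-colour Agilent mouse arrays, 1 per sample, per the labels' protocols. The deposited intensity is the processed signal of Agilent Feature Extraction 10.7.3.1, after background subtraction within the array, with mean signal and median background beside it (normexp alternative), per the file headers. The authors' table of 34378 names holds an intensity of unstated scaling, with column medians from 197.9 to 206.0, and limma is named in the submitters' processing notes. It was used as an alternative only. Here log2 intensity minus each array's 75th percentile was used without control and outlier spots, and spots of a probe were averaged. Of 55681 probes, 30186 matched a symbol in RefSeq (GRCm38.p6; 26056 by accession, 3200 by symbol, 930 by synonym). A probe was kept (38787) if both arrays of any of the 11 groups were well above background, and the brightest probe stood for each of 18045 genes. Of 4716 genes with several probes, 52 had probes called in opposite directions. Probe positions are those of the array design (mm9). limma 3.58.1 in R 4.3.3 fitted 11 group means over 22 arrays (11 residual and 1.66 prior degrees of freedom). P-values were adjusted by Benjamini-Hochberg over all genes, with a threshold of 0.05, and the script was tested on simulated data. Alternatives were normexp, quantile and other percentile scaling, the deposited table, other probe filters, the mean over probes, fewer arrays, a replicate block and leaving out each replicate. Named were the factors, the 15 largest measured and 8 largest bounded differences at day 5, up to 5 members of each list and any whose call is discussed, and the 8 largest changes between days in each direction, without clone and predicted names. The comparison, the 34 lists and the members were chosen with earlier results of these data known. Some named genes are not reported here.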

Additional observations from a re-analysis of the deposited data

Results flagged for a closer look

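The genes in this section were singled out because their MGT minus lacZ difference at day 5 differed from that at day 3 or day 7 by a test of that change across all genes (limma, Benjamini-Hochberg), and because they were well above background on all 8 arrays the change uses. They are the 8 largest in each direction, with clone and predicted names left out. A change of the difference can come from either group: the lacZ mean moved more than the MGT mean in 7 of the 16 genes for day 3 to day 5 and in 9 of the 16 for day 5 to day 7.

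Upward from day 3 to day 5 these were Actc1 (5.49), Myh6 (4.85), the keratin gene Krt13 (2.59), the kinase anchor Akap5 (2.55), Myh8 (2.50), the lens filament gene Bfsp2 (2.39), Unc13c (2.30), a factor for vesicle release, and Serpind1 (2.25), heparin cofactor II. For Actc1 the lacZ mean moved by -4.36 and the MGT mean by 1.13, for Myh6 by -4.05 and 0.80, for Myh8 by -2.04 and 0.46 and for Serpind1 by -1.59 and 0.66. For Krt13, Akap5 and Unc13c the MGT mean moved more (2.36, 2.34 and 1.64). Akap5 differed by -0.14 at day 3 and 2.41 at day 5. Bfsp2 had no difference past the test at day 5 (-0.19), from -2.58 at day 3, as its lacZ mean went from -0.93 to -3.67, and that change was not past the test with quantile normalization. Krt13 lost the call without day 3 lacZ 1, day 5 lacZ 1 or day 5 MGT 1 (adjusted p 0.0643 at most).

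Downward over the same interval were Cxcl5 (-3.51), the pantetheinase gene Vnn1 (-2.84), the glutathione transferase gene Gsta3 (-2.62), the serpin gene Serpina3n (-2.47), Gdpd2 (-2.44), Dpp4 (-2.41), the guanine deaminase gene Gda (-2.37) and the adhesion receptor gene Adgrd1 (-2.33). Several were higher with MGT at day 3: Vnn1 went from 2.89 to 0.05, Gdpd2 from 2.67 to 0.23, Serpina3n from 1.44 to -1.03 and Adgrd1 from 1.92 to -0.41. The lacZ mean moved more for Vnn1 (1.86, against -0.98 for MGT) and Adgrd1 (1.38 against -0.95), and the MGT mean for the other six. The day 5 value of Adgrd1 was not past the test without lacZ 1 or MGT 2 (adjusted p 0.0743 at most).

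Upward from day 5 to day 7 were Gsta1 (4.73), the cornified envelope gene Sprr1a (4.12), Sybu (3.47), Agt (3.01), the water channel gene Aqp1 (2.91), Myh6 (2.68), the cartilage collagen gene Col2a1 (2.68) and Ank1 (2.65). Sprr1a differed by -0.83 at day 5 and 3.29 at day 7. For Gsta1 the lacZ mean moved by -3.16 and the MGT mean by 1.57, and the lacZ mean also moved more for Agt and Col2a1. The change of Agt lost its call without any single one of its 8 arrays (adjusted p from 0.0810 to 0.112), and that of Sybu was not past the test in the deposited table. The day 5 rise of Aqp1 (0.57, adjusted p = 0.0420) was not past the test without any single one of the 4 day 5 arrays (0.0570 to 0.220).

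Downward from day 5 to day 7 were Fgl2 (-3.59), a secreted fibrinogen-like protein, Kank4 (-2.45), Scube1 (-2.37), Krt13 (-2.34), Adam23 (-2.22), Scg2 (-2.19), Myh1 (-2.06) and Scube3 (-1.97). Fgl2 differed by 3.33 and 3.37 at days 3 and 5 and by -0.21 at day 7, as its lacZ mean went from -1.40 to 2.23 while its MGT mean was 1.97 and 2.02. The lacZ mean also moved more for Kank4, Scube1, Scube3, Scg2 and Myh1, and the MGT mean for Krt13 and Adam23. The change of Adam23 lost its call without any single array (adjusted p from 0.0503 to 0.0709), and that of Krt13 without 7 of the 8 (0.128 at most), the exception being day 5 lacZ 2. The day 5 rise of Scube1 (0.60) was 0.36 without MGT 2 and not past the test without lacZ 2 or MGT 2.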

How the results depend on the processing

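The day 5 count of 6876 genes lay between 5211 and 7929 under the other settings and between 5186 and 5643 when a replicate was left out, and the share of calls that were higher lay between 38.8% and 51.9% (51.9% with the 75th percentile taken over probes above background on every array). The count for the change from day 3 to day 5 (1480) was 835 with normexp background correction and 2933 in a fit of only the arrays of that comparison, and 886 to 1127 with a replicate left out. The count for day 5 to day 7 (935) was 467 with normexp, 554 in the deposited table, 1415 without the day 14 arrays, 600 with a replicate block, and 503 to 723 with a replicate left out. Differences between replicates 1 and 2 were hardly correlated between lacZ and MGT over genes (-0.0235 at day 5). A correlation over genes cannot show whether replicate numbers paired the samples. The replicate block gave 6526 genes at day 5 and 1097 for day 3 to day 5. Causes were not tested. Of 224 named genes 204 passed at day 5, and 184 kept call and sign under every setting that measured them. Most were named because their day 5 difference was among the largest, so these counts do not describe genes in general. Over all genes, 5066 of the 6876 calls kept call and sign with normexp background correction and 6796 without the day 14 arrays. Of 67 further list members discussed, 51 passed at day 5. Of these, 9 lost the call under at least 1 setting, and 40 kept call and sign under all that measured them. Calls were gained too: 9 of the 20 named genes not past the test passed under at least 1 setting, as did 8 of the further members. With the deposited table and with probes averaged, Col8a2 turned to 1.85 and 2.13 and Nkd2 to -0.40 and -0.43, and Notch1 was -0.0183 in the deposited table. Other signs turned only for genes not past the test. Stfa1 was 0.12 with normexp and 0.0156 with quantile normalization, Cdh1 0.13 with normexp and 0.0432 in the deposited table, S100a9 0.18, 0.0614 and 0.0358 with normexp, deposited and quantile values, Vnn1 -0.0180 in the deposited table and Gfap -0.0116 with quantile normalization. Adam23 was 0.00677 with the other 75th percentile and between -0.16 and 0.0472 with a replicate left out. Col1a1 was 0.0126 and 0.0235 with deposited and quantile values, Myf6 0.23, 0.0852 and 0.34 and Pax7 0.21 and 0.27 (normexp, deposited, and quantile for Myf6), Pln 0.30 and 0.58 (normexp, deposited) and Nkx2-5 0.0272 with the other 75th percentile, and with a replicate left out these lay at -0.18 to 0.0338 (Col1a1), -0.48 to 0.0424 (Myf6), -1.15 to 0.83 (Pln) and -0.11 to 0.0382 (Nkx2-5). List counts that moved included the respiratory chain (1 to 13 higher), macrophage markers (1 to 8 higher), ion channels (6 to 14 higher) and cell cycle genes (19 to 30 lower). The medians of cardiac transcription regulators (-0.11 to 0.03), hormones (-0.11 to 0.27), fatty acid oxidation (-0.07 to 0.05), smooth muscle (-0.09 to 0.11), splicing (-0.13 to 0.04), IGF (-0.46 to 0.13), pericyte (-0.21 to 0.33) and epithelial genes (-0.48 to 0.12) lay on both sides of 0. Signal near background limits 1646 genes that were above it on no day 5 array.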

Other observations

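Of the 38787 probes kept, 15026 carried no gene symbol in the sources used here. At day 5, 1767 of them were higher and 1240 lower with MGT. These counts come from a separate fit of all 38787 kept probes, with p-values adjusted over probes rather than genes. They are therefore not comparable with the gene counts above, and the shares over all kept probes were not counted.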
